A study of Mus musculus with 8 samples.

Results

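Cxcl1, Cxcl2, Cxcl3, Cxcl5 and Ppbp (also known as Cxcl7), which encode chemokines that attract neutrophils, and Cxcr2, which encodes their shared receptor, were followed across the cell types of mouse colon tumors. These 6 genes were picked by symbol, and not by their values, from the 20275 gene symbols listed over all plates. Single cells had been profiled by SORT-seq, which sorts 1 cell into each well of a 384-well plate and counts captured 3′ transcript ends by unique molecular identifiers (UMIs). All tumors had grown orthotopically from engrafted colon tumor organoids, and all mice received a Tamoxifen diet. The 4 FibΔZeb1 plates held cells of mice that carried the genotype label Zeb1Fib-deleted and were positive for the Col1a1Cre-ERT2 transgene, an inducible Cre driven in collagen-producing cells. The 4 FibCtrl plates came from mice labeled Zeb1Fib-Ctrl, which were negative for it. The methods of the study give the driver as Col1a2-CreERT2 on floxed Zeb1 alleles, so the driver is not certain. Each plate held cells from a Fibroblast gate negative for CD45, EPCAM and CD31, an Epithelial gate positive for EPCAM and an Immune gate positive for CD45, so the mix of cell types reflects the sorting scheme, and gates of single wells are not analysed here.

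The ligands are small secreted proteins with a Glu-Leu-Arg motif ahead of their first cysteine, and they bind CXCR2, a G protein-coupled receptor that guides neutrophils from blood into tissue. Cxcl1, Cxcl2, Cxcl3 and Cxcl5 are known as NF-κB targets that respond to interleukin-1, TNF and interleukin-17 in epithelium, stroma and myeloid cells, whereas Ppbp is best known from megakaryocytes and platelets. In the inflamed gut and in colon tumors these ligands are known to draw neutrophils into the tissue.

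On the GRCm38 build (GENCODE M21), the ligand genes lay on the plus strand of chromosome 5 within a cluster of 7 protein-coding genes that spans 147 kb. In order, these were Cxcl5 (90759360 to 90761624), Ppbp (90768518 to 90770063), Pf4 (90772435 to 90773383), Cxcl3 (90786103 to 90789600), Cxcl15 (90794534 to 90803067), Cxcl1 (90891241 to 90893115) and Cxcl2 (90903871 to 90905938). Cxcr2 lay on the plus strand of chromosome 1 (74153989 to 74161246).

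The 120 bases ahead of the annotated start of Cxcl1 (chr5:90891121-90891240), Cxcl2 (chr5:90903751-90903870) and Cxcl3 (chr5:90785981-90786100) are printed because these 3 ligands carried most of the ligand transcripts and share a stretch of promoter sequence. They were taken from RefSeq on GRCm38.p6, on the plus strand, and capitals mark matches on either strand to GGGNNTTTCC, one form of the NF-κB site.
Cxcl1: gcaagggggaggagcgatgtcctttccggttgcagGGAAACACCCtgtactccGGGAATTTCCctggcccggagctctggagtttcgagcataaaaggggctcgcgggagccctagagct
Cxcl2: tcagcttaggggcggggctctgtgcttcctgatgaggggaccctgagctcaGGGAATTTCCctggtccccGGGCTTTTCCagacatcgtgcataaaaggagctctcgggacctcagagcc
Cxcl3: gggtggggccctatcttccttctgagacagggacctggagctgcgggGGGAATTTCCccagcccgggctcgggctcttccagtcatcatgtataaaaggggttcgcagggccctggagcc
All 3 held GGGAATTTCC, which began 67 bases before the start of Cxcl1, 69 before that of Cxcl2 and 73 before that of Cxcl3, counted from the earlier of the RefSeq and GENCODE starts. Cxcl1 and Cxcl2 held a further match 85 and 50 bases before the start. Within the 250 bases ahead of each start, GGGNNTTTCC was found in 464 of 32851 promoters (1.41%) and GGGAATTTCC in 28 (0.0852%). The promoters of Ppbp and Cxcr2 held 0 matches to these letters, and the Cxcl5 promoter was not analysed here. The matches describe the sequence and are not measured binding sites.

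The 8 plates held 3072 wells and between 981881 (FibCtrl plate 2) and 5905190 (FibCtrl plate 1) cell transcripts, without mitochondrial and spike-in transcripts. FibCtrl plate 2 stood apart, with a median of 221 transcripts per well against 1006 to 3518 on the other plates, and with 28.2% of its transcripts from spike-ins against 5.81% to 12.4%. Values are UMI counts that the authors corrected for UMI collisions, and levels below are counts per 1000000 transcripts (CPM) over all wells of a class on a plate. Wells were numbered alike on every plate, so all 384 well labels are shared by design. After filtering, 1831 wells formed 24 clusters, which were named from marker genes as epithelial-like (417 wells), neutrophil-like (256), macrophage-like (176) and fibroblast-like (145), called epithelial, neutrophil, macrophage and fibroblast wells below. The 6 genes were kept out of the clustering and the marker lists. Each class had its own markers in at least 10% of wells, 10 of 10 for fibroblast and epithelial wells, 9 of 9 listed in the files for macrophage wells and 9 of 9 for neutrophil wells, in which Ly6g was not analysed. A plate entered a class with at least 10 wells, which gave 8 epithelial, 7 neutrophil, 6 macrophage and 5 fibroblast sums. Zeb1, the targeted gene, had 93.4 and 83.4 CPM in fibroblast wells of FibCtrl plates 1 and 4, and 43.6, 47.9 and 30.8 CPM on FibΔZeb1 plates 1, 3 and 4. Per the study's description, as many mice of each genotype were sequenced as there are plates, although no label ties a plate to a mouse, and the p-values below measure the spread between plates, and Poisson and binomial intervals cover counting error only.

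Whether the ligands came from fibroblasts, tumor cells or infiltrating myeloid cells was asked first. Differences between classes were fitted with edgeR's quasi-likelihood test with plate as a block over 8831 genes, on a log2 scale with TMM scaling. Cxcl1, Cxcl2, Cxcl3 and Cxcr2 passed the expression filter and Cxcl5 and Ppbp did not. Of their 24 tests in 6 contrasts, 16 passed an adjusted p of 0.05. Against neutrophil wells, 4 of 4 members were lower in epithelial wells (54.4% of all genes were called in this contrast, 33.7% higher and 20.7% lower), 3 of 4 in fibroblast wells (47.6% called, 28.9% higher and 18.6% lower) and 3 of 4 in macrophage wells (27.2% called, 18.2% higher and 9.03% lower). Against macrophage wells, 3 of 4 were lower in epithelial wells (47.3% called, 23.1% higher and 24.2% lower) and 2 of 4 in fibroblast wells (37.4% called, 18.1% higher and 19.3% lower). Between fibroblast and epithelial wells 1 of 4 differed and was higher in fibroblast wells (42.6% called, 21.7% higher and 20.9% lower). Scaling moved the median gene by 0.43 for fibroblast minus epithelial, -0.37 for epithelial minus macrophage, -0.28 for epithelial minus neutrophil and 0.15 for fibroblast minus neutrophil wells, and by at most 0.10 in the other contrasts. It also moved the share of higher calls from 27.2% to 50.9% in the first of these contrasts and from 68.3% to 48.9% in the second.

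**Figure D1:**
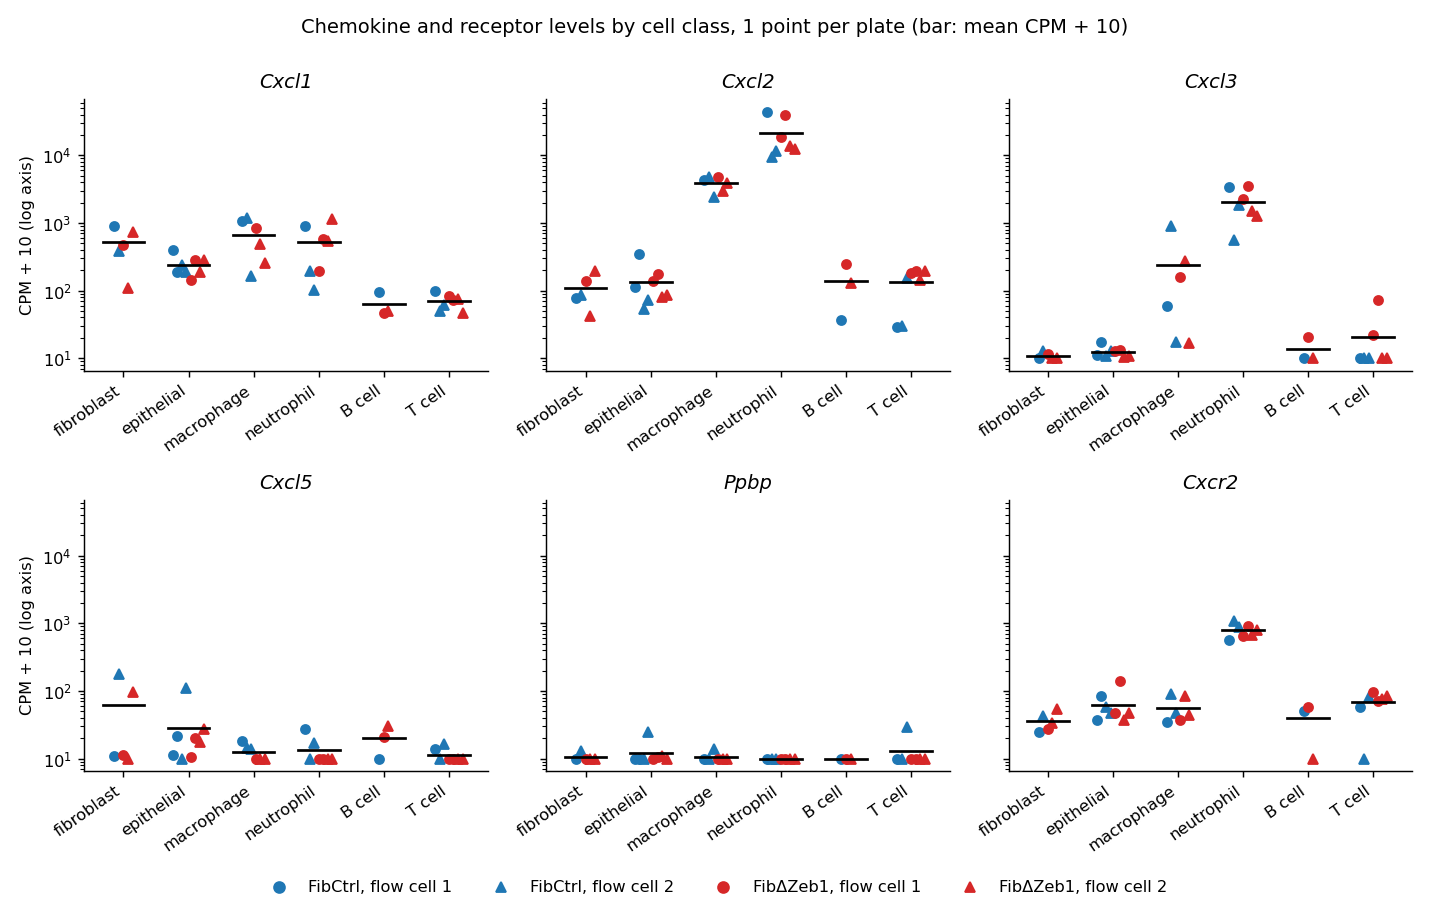
Level of each of the 6 genes in fibroblast, epithelial, macrophage and neutrophil wells, as CPM + 10 on a log axis, with 1 point per plate in the color of its genotype and a bar at the mean over plates. All neutrophil points lie above all others for Cxcl2 and Cxcr2, and for Cxcl3 with the exception of 1 macrophage point at 878 CPM, whereas the classes overlap for Cxcl1, Cxcl5 and Ppbp.

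Cxcl1, a ligand made by epithelium, stroma and macrophages in inflamed tissue, was present in all 4 classes without belonging to 1 of them. Of its 8762 transcripts over all wells, 37.6% lay in epithelial, 20.4% in fibroblast, 14.5% in macrophage, 9.05% in mesothelial-like and 3.04% in neutrophil wells. A further 10.2% lay in 36 fibroblast-like wells that were left out because they held at least 2 Ptprc or Epcam transcripts. By mean CPM, which is relative to the depth of a well, the order was macrophage, neutrophil, fibroblast and epithelial. The order of transcripts per well was another. Wells with Cxcl1 held a median of 8 of its transcripts in fibroblast, 5 in macrophage, 4 in epithelial and 2 in neutrophil wells. Neutrophil wells were shallow, with a median of 1889 transcripts against 24430 in epithelial wells. In macrophage wells the lowest, median and highest plates had 155, 650.4 and 1158 CPM (652 ± 420.4, SD, n = 6). In neutrophil wells they had 93.1, 533 and 1131 CPM (514 ± 393, SD, n = 7). In fibroblast wells, FibCtrl plates 1 and 4 had 901 and 379.6 CPM and FibΔZeb1 plates 1, 3 and 4 had 454, 99.4 and 726 CPM (512 ± 312, SD, n = 5). These 3 classes overlapped widely, and no contrast between them passed. In epithelial wells the lowest, median and highest plates had 135, 204 and 395 CPM (229.6 ± 82.7, SD, n = 8). The epithelial level was lower than that of macrophage wells by edgeR (log2 -1.89, SE 0.40, adjusted p = 0.000173), neutrophil wells (-1.44, SE 0.40, adjusted p = 0.00303) and fibroblast wells (fibroblast minus epithelial 1.62, SE 0.40, adjusted p = 0.00144, and 1.17 without scaling). Not all plates went this way. By CPM, epithelial wells were lower than macrophage wells on 4 of 6 plates, neutrophil wells on 5 of 7 and fibroblast wells on 4 of 5. The call against neutrophil wells was lost with FibCtrl plates alone (-0.62, adjusted p = 0.353) and with classes drawn from marker sums (-0.62, adjusted p = 0.171), and over all alternatives its adjusted p ranged up to 0.353. With each well thinned to 1000 transcripts, Cxcl1 was found in 24.4% of macrophage wells (95% exact binomial interval 17.9 to 31.8), 22.6% of fibroblast wells (15.6 to 30.96), 15.3% of neutrophil wells (10.9 to 20.6) and 12.5% of epithelial wells (9.42 to 16.1), against 6.40% of B cell-like and 8.96% of T cell-like wells.

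Cxcl2, the ligand that activated neutrophils and macrophages themselves release, was concentrated in the myeloid classes. Neutrophil wells held 48.6% of its 20285 transcripts and macrophage wells 35.2%. The lowest, median and highest plates had 9363, 13622 and 44423 CPM in neutrophil wells (21461 ± 14523, SD, n = 7) and 2381, 4122 and 4846 CPM in macrophage wells (3865 ± 1004, SD, n = 6). The plates of these classes did not overlap. In epithelial wells the corresponding values were 43.8, 90.8 and 337 CPM (124 ± 94.7, SD, n = 8). Fibroblast wells had 67.8 and 74.8 CPM on FibCtrl plates 1 and 4, and 128, 31.96 and 185 CPM on FibΔZeb1 plates 1, 3 and 4 (97.4 ± 59.7, SD, n = 5), so that fibroblast and epithelial wells overlapped. By edgeR, Cxcl2 was lower in macrophage than in neutrophil wells (macrophage minus neutrophil -1.70, SE 0.26, adjusted p = 6.92e-06). It was lower in epithelial (-7.67, SE 0.28, adjusted p = 1.14e-19) and fibroblast wells (-7.09, SE 0.35, adjusted p = 6.34e-16) than in neutrophil wells, and lower in them than in macrophage wells (-5.96, SE 0.27, adjusted p = 1.26e-17, and -5.39, SE 0.32, adjusted p = 4.33e-14). The epithelial level lay below the neutrophil level on 7 of 7 plates (mean log2 difference of CPM + 10 -7.32, exact sign-flip permutation p = 0.0156, the smallest that 7 plates allow, 0.188 adjusted over 36 such tests). With so few plates, no adjusted p of these 36 tests could have passed 0.05. Fibroblast and epithelial wells were not told apart (0.58, SE 0.27, adjusted p = 0.0806), although this passed without FibCtrl plate 1 (0.77, adjusted p = 0.0357) or FibΔZeb1 plate 3 (0.80, adjusted p = 0.0170). These values include TMM scaling. Without it, the mean log2 difference of CPM + 10 was -0.03, and fibroblast wells were higher on 2 of 5 plates.

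The Cxcl2 signal was spread over many wells of the myeloid classes. It was found in 229 of 256 neutrophil wells and 140 of 176 macrophage wells, with a median of 24 transcripts per positive well in each class, and the top neutrophil well held 3.15% of the class total. At 1000 transcripts per well the share of positive wells was 84.7% in neutrophil (79.4 to 89.1) and 63.8% in macrophage wells (55.8 to 71.2), against 11.2% in B cell-like and 14.2% in T cell-like wells, which are not known as sources. The epithelial share of 12.8% (9.64 to 16.4) lay between the B cell-like and T cell-like shares, taken as lymphocyte background. The fibroblast share of 7.26% (3.37 to 13.3) lay below both. Before thinning the epithelial and fibroblast shares were 71.2% and 57.8%, at median depths of 24430 and 21292 transcripts per well against 2745 in B cell-like and 3258 in T cell-like wells. Neutrophil markers were also found in macrophage wells at a summed 414 to 987 CPM, against 15896 to 100072 CPM in neutrophil wells. Per neutrophil marker transcript, macrophage wells had 2.98 to 10.8 Cxcl2 transcripts and neutrophil wells 0.0936 to 0.772, without overlap between plates.

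Cxcl3, a close relative of Cxcl1 and Cxcl2, was the ligand most restricted to neutrophil wells, which held 68.97% of its 1460 transcripts. There the lowest, median and highest plates had 556, 1812 and 3569.55 CPM (2045 ± 1107, SD, n = 7). Macrophage wells had 6.72, 98.96 and 878 CPM (226 ± 335, SD, n = 6), and epithelial wells at most 7.43 CPM. Fibroblast wells held 3 Cxcl3 transcripts among 3257057. Macrophage wells were lower than neutrophil wells (edgeR log2 -3.14, SE 0.60, adjusted p = 0.000211) and higher than epithelial wells (epithelial minus macrophage -6.87, SE 0.68, adjusted p = 4.47e-10). In the macrophage class, however, 209 of 398 Cxcl3 transcripts (52.5%) came from 1 well of FibCtrl plate 3, and without that well the plate had 4.27 CPM. The call against neutrophil wells was lost with FibCtrl plates alone (-2.15). With the top well, FibCtrl plate 3 was the plate on which the macrophage level (878 CPM) exceeded the neutrophil level (556 CPM). At 1000 transcripts per well, Cxcl3 was found in 28.4% of neutrophil wells (22.6 to 34.7), 4.38% of macrophage wells and 0 of 400 epithelial wells, which allows a share of up to 0.75%.

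Cxcl5, known as an epithelial and stromal ligand of the inflamed gut, was rare and came in bursts from few wells. Of its 634 transcripts, 43.8% lay in fibroblast, 38.6% in epithelial and 11.04% in mesothelial-like wells. Fibroblast wells of FibCtrl plates 1 and 4 had 0.983 and 169.7 CPM, and those of FibΔZeb1 plates 1, 3 and 4 had 1.45, 0 and 85.6 CPM. Cxcl5 was found in 11 of 145 fibroblast wells, and the 2 top wells, on FibCtrl plates 2 and 4, held 133 and 115 of 278 transcripts (89.2% together). Without its top well, FibCtrl plate 4 fell to 4.53 CPM from 169.7. Epithelial wells had a median of 9.04 CPM over 8 plates with a range of 0 to 100.4, and 3 wells of FibCtrl plate 4 held 54.3% of the 245 epithelial transcripts. Neutrophil wells held 2 Cxcl5 transcripts and macrophage wells 3. At 1000 transcripts per well the gene was found in 0 of 229 neutrophil wells, which allows a share of up to 1.31%.

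Ppbp, the platelet basic protein gene, was close to absent. It was listed on 3 of 8 plates with 42 transcripts in all, of which 35 lay on FibCtrl plate 4, 4 on FibΔZeb1 plate 2 and 3 on FibΔZeb1 plate 3. Epithelial wells held 28 of them, and 13 and 10 came from 2 deep wells of FibCtrl plate 4 with 62960 and 56816 transcripts, which also held 8 and 19 Cxcl5 transcripts. None were found among the 543843 transcripts of 256 neutrophil wells, where a count of 0 allows up to 21.5 to 74.9 CPM on a plate. The summed level of 6 platelet markers was at most 31.9 CPM in any class and plate, and Gp9 and Gp5 were at 0 in fibroblast and macrophage wells.

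Among the 4 main classes, Cxcr2, the receptor, was highest in neutrophil wells, while unnamed clusters described further on had still higher levels. The lowest, median and highest plates had 559, 783 and 1070.1 CPM in neutrophil wells (781 ± 177, SD, n = 7), all above the other classes. Epithelial wells had 27.2, 37.4 and 131 CPM (52.4 ± 35.3, SD, n = 8) and macrophage wells 24.4, 35.7 and 79.5 CPM (46.3 ± 24.5, SD, n = 6). Fibroblast wells had 14.7 and 33.1 CPM on FibCtrl plates 1 and 4, and 17.4, 23.1 and 44.5 CPM on FibΔZeb1 plates 1, 3 and 4 (26.6 ± 12.2, SD, n = 5). Cxcr2 was lower than in neutrophil wells in fibroblast (edgeR log2 -4.35, SE 0.32, adjusted p = 2.13e-12), epithelial (-4.20, SE 0.25, adjusted p = 3.24e-15) and macrophage wells (-3.69, SE 0.30, adjusted p = 1.37e-10). Between fibroblast, epithelial and macrophage wells no difference passed (log2 -0.15 to -0.65). At 1000 transcripts per well, 47.2% of neutrophil wells had a Cxcr2 transcript (40.6 to 53.8), against 8% of epithelial, 5.63% of macrophage, 3.23% of fibroblast, 4% of B cell-like and 5.22% of T cell-like wells, so that the epithelial, macrophage and fibroblast shares lay near the lymphocyte background. Without FibCtrl plate 2, 16 of the 24 class tests passed as before, and the epithelial minus neutrophil differences were -7.69 for Cxcl2, -10.17 for Cxcl3, -4.32 for Cxcr2 and -1.21 for Cxcl1.

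The cluster-defining programs of the neutrophil wells went with different levels of receptor and ligands. There were 2 neutrophil clusters, 1 led by Ccl3, Ccl4 and Il1rn (184 wells) and 1 led by Retnlg, S100a8 and S100a9 (72 wells), and 6 plates held at least 5 wells of each. Cxcr2 averaged 1360.5 ± 433 CPM (SD, n = 6) in the Retnlg cluster and 476 ± 208 in the Ccl3 cluster and was higher in the former on 6 of 6 plates. Cxcl1 showed the opposite order, with 65.0 ± 76.9 against 1012 ± 815 CPM, and was lower in the Retnlg cluster on 5 of 6 plates (40.3 against 1178 CPM without FibΔZeb1 plate 1). Cxcl2 averaged 16877 ± 13812 against 29769.8 ± 21003 CPM, again lower on 5 of 6 plates, and Cxcl3 averaged 2273 against 2594 CPM and was higher on 3 of 6. A Cxcr2 transcript was found in 90.3% of wells of the Retnlg cluster and 44.6% of the Ccl3 cluster. Since the clusters were drawn from the other genes of the same wells and compared after their levels were seen, these values are a description without a test.

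**Figure D2:**
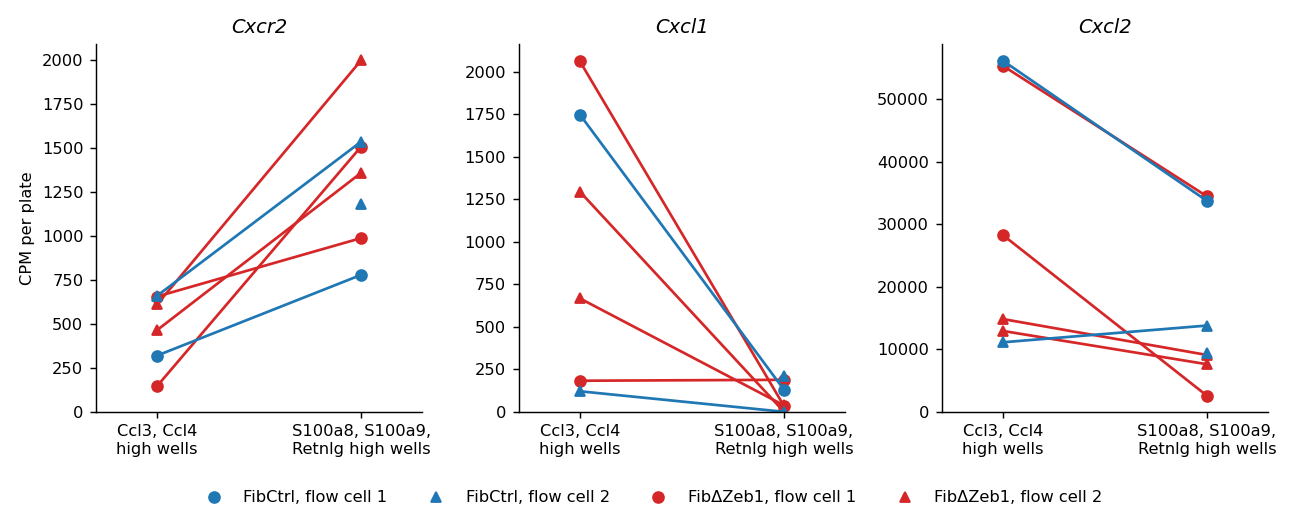
Cxcr2, Cxcl1 and Cxcl2 in CPM per plate in the Ccl3-led and the Retnlg-led neutrophil cluster, with lines joining the clusters of a plate and colors for genotype. Cxcr2 was higher in the Retnlg-led cluster on 6 of 6 plates, and Cxcl1 and Cxcl2 were lower on 5 of 6, while FibCtrl plate 3 is drawn for the Retnlg-led cluster alone.

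Ligand levels also differed within the other classes, again as a description without a test. The fibroblast cluster led by Dpt, Dcn and Lum had 785 ± 598 CPM of Cxcl1 (SD, n = 4), against 115 ± 101 in the cluster led by Tnc and Tagln, and was higher on 4 of 4 plates. Without FibCtrl plate 1 these means were 553 and 74.3 CPM. Cxcl2 averaged 104 and 56.5 CPM in these clusters, was higher in the former on 3 of 4 plates, and averaged 57.9 and 54.1 CPM without FibΔZeb1 plate 4. In macrophages, the cluster led by Mmp12 and Arg1 (41 wells) had higher means of Cxcl1 (1541 against 311 CPM, higher on 3 of 4 plates) and Cxcl2 (6001 against 2276 CPM, 3 of 4 plates) than the cluster led by Lyz2, Mrc1 and C1q genes (113 wells). The Cxcl1 mean rested on FibΔZeb1 plate 1, without which it was 692 against 233 CPM. Cxcl3 averaged 2450.04 against 28.1 CPM and was higher on 4 of 4 plates, but FibCtrl plate 3, where 209 of 210 transcripts came from the top well, had 7903 CPM, and without this plate the means were 632 and 37.5 CPM. Without FibΔZeb1 plate 1 the lower of these Cxcl3 means was 3.30 CPM. Epithelial wells of the cluster led by Wfdc2 and Krt7 had 59.5 CPM of Cxcl5 against 11.96 in the Muc2-led cluster, and were higher on 4 of 6 plates, with 31.8 against 10.1 CPM without FibCtrl plate 4 and 70.6 against 7.002 CPM without FibCtrl plate 2. Their Cxcl1 averaged 226 against 98.9 CPM and was higher on 5 of 6 plates.

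Genes around the chemokine axis were counted in 3 lists, namely upstream cytokines and their receptors, NF-κB feedback genes, and other receptors and ligands of neutrophil traffic. All 10 NF-κB feedback genes tested were higher in neutrophil than in epithelial wells (median log2 of epithelial minus neutrophil -3.43, against 0.46 over all genes), as were 8 of 9 traffic genes (-7.34) and 8 of 11 upstream genes (-3.66), while Il17rc, a subunit of the interleukin-17 receptor, was lower. Of all genes, 20.7% were higher in neutrophil wells in this contrast and 33.7% lower. The members named in each list are those of highest level in the class described. In neutrophil wells these were Il1b, encoding the cytokine interleukin-1β (epithelial minus neutrophil -9.50), the NF-κB inhibitor gene Nfkbia (-4.58), and the chemokine receptor gene Ccr1 (-9.21). Of 11 upstream genes, 5 were higher and 2 lower in fibroblast than in epithelial wells, and of 10 feedback genes 4 were higher, against 21.7% higher and 20.9% lower over all genes. The 4 upstream genes of highest fibroblast level were all higher than in epithelial wells, namely the TNF receptor gene Tnfrsf1a (fibroblast minus epithelial 1.62), the interleukin-1 receptor gene Il1r1 (4.34), Il6 (6.66) and the interleukin-17 receptor gene Il17ra (2.01). Of the feedback genes, Nfkbia (1.59) and Nfkbiz (1.78) were higher, and Nfkb1 (0.16) and Tnfaip3 (0.78) did not pass. Between macrophage and neutrophil wells, 6 of 10 feedback genes were lower in macrophage wells, as were 3 of 11 upstream genes and 4 of 9 traffic genes, against 9.03% of all genes, whereas Il6 (5.79) and the platelet factor gene Pf4 (4.12), a neighbor of Ppbp, were higher (18.2% of all genes).

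The study's main question, how deletion of Zeb1 in fibroblasts alters the tumor, was then asked of the 6 genes within each class, as FibΔZeb1 minus FibCtrl. By edgeR, 0 of the 4, 4, 3 and 4 members tested passed in fibroblast, epithelial, macrophage and neutrophil wells. The background was 0.0121% of 8244 genes in fibroblast wells (1 gene, Aldh1a2), 0% of 10290 in epithelial wells, 0% of 4477 in macrophage wells and 0.0942% of 1062 in neutrophil wells (1 gene, BC018473). At an unadjusted p under 0.05, 499, 172, 167 and 41 genes fell in these classes, 0 of them members, and DESeq2 called 37, 1, 1 and 1 genes at an adjusted p of 0.05, also without a member. None of the upstream, feedback and traffic genes that were tested passed in any class either. Of the 15, 10 and 12 genes listed, 9, 10 and 1 were tested in fibroblast wells and 9, 10 and 0 in epithelial wells. In macrophage wells 9, 9 and 5 were tested, and in neutrophil wells 7, 8 and 6. Of the 4 members with a mean of at least 10 CPM in each class, 0 were without overlap between genotypes, against 19.7%, 1.22%, 9.09% and 4.39% of all genes at that level in fibroblast, epithelial, macrophage and neutrophil wells. Below that level, Cxcl5 in macrophage wells did not overlap, on 3 transcripts.

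**Figure D3:**
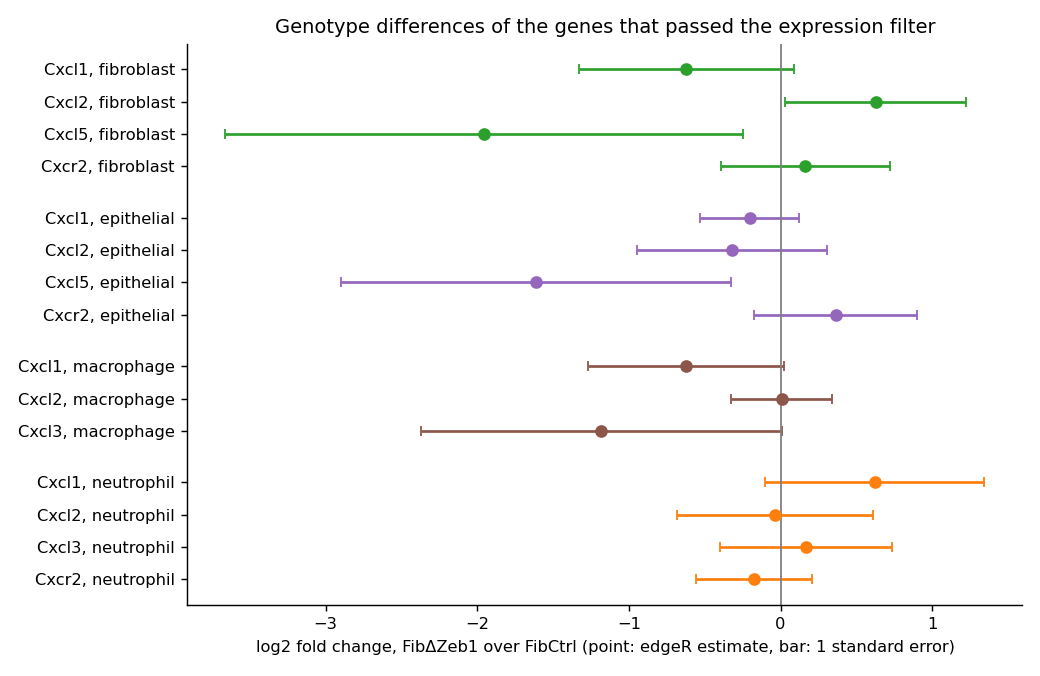
Log2 difference of FibΔZeb1 over FibCtrl by edgeR for each member that passed the expression filter in fibroblast, epithelial, macrophage and neutrophil wells, with a bar of 1 SE. All 15 differences had an adjusted p above 0.05, and the widest bars belong to Cxcl5 and to Cxcl3 in macrophage wells.

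Cxcl1 had the lower mean in FibΔZeb1 in 3 of 4 classes, within the spread of the plates. In fibroblast wells the FibCtrl plates had 901 and 379.6 CPM and the FibΔZeb1 plates 454, 99.4 and 726 CPM, so the FibCtrl values lay inside or above the FibΔZeb1 range (edgeR log2 -0.62, SE 0.71, adjusted p = 0.991). Within flow cell 1 (FibCtrl plate 1 and FibΔZeb1 plate 1) the difference was -447 CPM. Within flow cell 2 (FibCtrl plate 4 and FibΔZeb1 plates 3 and 4) it was 33.03 CPM. In macrophage wells FibCtrl plates 1, 3 and 4 had 1047, 1158 and 155 CPM and FibΔZeb1 plates 1, 3 and 4 had 825, 476 and 248.6 CPM (-0.62, SE 0.64, adjusted p = 0.9998). Here the lowest plate was a FibCtrl plate. On FibCtrl plate 3, the macrophage cluster led by Saa3, Serpinb2 and Alox15 held 225 Cxcl1 transcripts (2031 CPM). The Mmp12-led cluster of that plate held 32 (1207 CPM) and the C1q-led cluster 19 (187 CPM). The Saa3-led cluster had enough wells on that plate alone, and its part in the genotype difference was not tested. In epithelial wells FibCtrl plates 1 to 4 had 395, 178, 228 and 176 CPM and FibΔZeb1 plates 1 to 4 had 135, 270.4, 181 and 274 CPM (-0.20, SE 0.33, adjusted p = 0.99997). In neutrophil wells FibCtrl plates 2, 3 and 4 had 898, 185 and 93.1 CPM and FibΔZeb1 plates 1 to 4 had 185, 574, 533 and 1131 CPM (0.62, SE 0.73, adjusted p = 0.973). In both classes the genotypes overlapped over most of their range. In neutrophil wells the difference was -519 CPM within flow cell 1, where FibCtrl plate 2 was the only FibCtrl plate, and 693 CPM within flow cell 2. Without FibCtrl plate 2 the log2 difference was 2.19 (adjusted p = 0.728, and 0.973 with all plates).

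Cxcl2 was equally inconclusive. In neutrophil wells FibCtrl plates 2, 3 and 4 had 44423, 9363 and 11732 CPM and FibΔZeb1 plates 1 to 4 had 18808, 40014, 13622 and 12267 CPM, with nearly equal means of 21839 and 21178 CPM (edgeR log2 -0.04, SE 0.65). The difference was -15012 CPM within flow cell 1, where FibCtrl plate 2 was the only FibCtrl plate, and 2397 CPM within flow cell 2. In macrophage wells FibCtrl plates 1, 3 and 4 had 4286, 4780.2 and 2381 CPM and FibΔZeb1 plates 1, 3 and 4 had 4846, 2942 and 3957 CPM (0.01, SE 0.33), the narrowest error of any member in that class. In epithelial wells FibCtrl plates 1 to 4 had 105, 337, 43.8 and 62.7 CPM and FibΔZeb1 plates 1 to 4 had 131, 164, 71.3 and 77.1 CPM (-0.32, SE 0.62). FibCtrl plate 2 was the highest of these 8, and without it the difference was 0.67. In fibroblast wells the difference was 0.63 (SE 0.60), with 67.8 and 74.8 CPM on the FibCtrl plates inside the FibΔZeb1 range of 31.96 to 185 CPM.

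The other members did not separate the genotypes beyond the spread of the plates. Cxcl3 in neutrophil wells had 3373, 556 and 1812 CPM on FibCtrl plates 2, 3 and 4 and 2264, 3569.55, 1497 and 1243 CPM on FibΔZeb1 plates 1 to 4 (edgeR log2 0.17, SE 0.57). Cxcr2 in neutrophil wells had 559, 1070.1 and 859 CPM on the FibCtrl plates and 647, 899, 653 and 783 CPM on the FibΔZeb1 plates (-0.18, SE 0.38), so every FibΔZeb1 plate lay inside the FibCtrl range. Cxcl5 had differences of -1.95 (SE 1.71) in fibroblast and -1.61 (SE 1.28) in epithelial wells. Without the top well of FibCtrl plate 4 the mean difference of Cxcl5 in fibroblast wells went from -56.3 to 26.3 CPM (exact two-sided permutation p = 0.6 and 1), and without the top well of FibCtrl plate 3 that of Cxcl3 in macrophage wells went from -170.1 to 121 CPM (exact p = 0.8 and 0.3). An exact two-sided permutation test cannot go below 0.2 with 2 against 3 plates or 0.1 with 3 against 3. With 3 against 4 plates it cannot go below 0.0571, and with 4 against 4 not below 0.0286.

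Plates were sequenced on 2 flow cells, the first holding replicates 1 and 2 of both genotypes and the second the other 2 of each. Genotype and flow cell were thus balanced over all plates, but not in every class once plates with fewer than 10 wells were left out. In neutrophil wells FibCtrl plate 2 was the only FibCtrl plate of flow cell 1. The comparison of flow cells was added after the values were seen. Cxcl2 was higher on flow cell 1 in neutrophil wells, where its plates had 44423, 18808 and 40014 CPM against 9363, 11732, 13622 and 12267 CPM, without overlap (exact two-sided permutation p = 0.0571, the smallest possible). The edgeR difference with genotype as a term was 1.66 (SE 0.40, adjusted p = 0.151, and 0.0573 to 0.760 with 1 plate left out), and 1.34 without scaling, where the median gene stood at -0.32. In epithelial wells the plates of flow cell 1 had 105, 337, 131 and 164 CPM against 43.8, 62.7, 71.3 and 77.1 CPM, again without overlap (exact p = 0.0286, the smallest possible, and edgeR 1.63, SE 0.39, adjusted p = 0.192, with 1.09 without FibCtrl plate 2). Cxcl3 in neutrophil wells was 2264 to 3569.55 CPM on flow cell 1 and 556 to 1812 CPM on flow cell 2 (exact p = 0.0571, again the smallest possible, edgeR 1.36, SE 0.41, adjusted p = 0.301). In macrophage wells the Cxcl2 values of the flow cells overlapped, as they did in T cell-like wells. No member passed in the edgeR fits, where 0.158% of genes were called in fibroblast, 0% in epithelial, 0.0774% in macrophage and 0.0942% in neutrophil wells. Of the 4 members with a mean of at least 10 CPM in each class, 1 in fibroblast (Cxcr2), 1 in epithelial (Cxcl2), 1 in macrophage (Cxcr2) and 2 in neutrophil wells (Cxcl2 and Cxcl3) did not overlap between flow cells, against 22.4%, 9.21%, 14% and 9.34% of all genes at that level. Without FibΔZeb1 plate 4 the flow cell difference of Cxcl1 in fibroblast wells passed (1.70, adjusted p = 0.0194), as did 125 of 7959 genes. Without FibΔZeb1 plate 3 that of Cxcl5 passed (-6.61, adjusted p = 0.0110), as did 16 of 7882 genes, against 13 of 8244 with all plates. These fits held 4 plates each. Without FibΔZeb1 plate 1, which left 1 plate on flow cell 1, the Cxcl5 difference was -7.15. On FibCtrl plate 4, 1 fibroblast well held 115 Cxcl5 transcripts, and without it the plate had 4.53 CPM. Neutrophil markers in epithelial wells summed to 271, 1134, 532 and 102 CPM on flow cell 1 and 249, 42.9, 58.3 and 218 CPM on flow cell 2. Their part in the epithelial values was not tested.

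**Figure D4:**
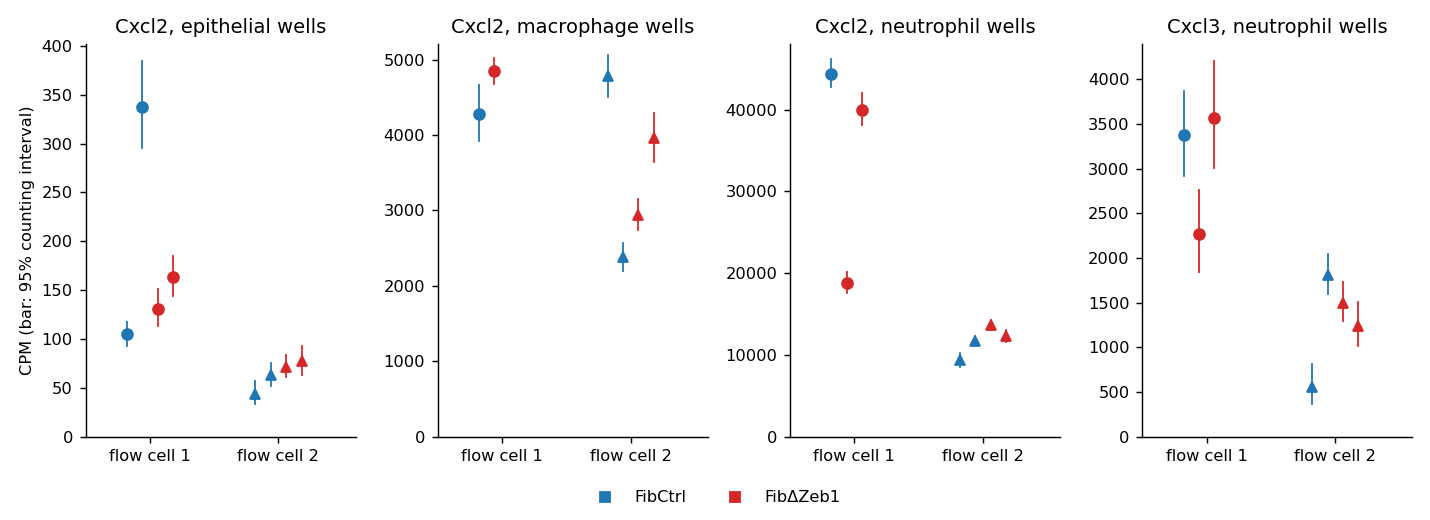
Cxcl2 in epithelial, macrophage and neutrophil wells and Cxcl3 in neutrophil wells, in CPM by flow cell, with 1 point per plate, colors for genotype and bars for the 95% Poisson counting interval. The flow cells do not overlap for Cxcl2 in epithelial and neutrophil wells or for Cxcl3 in neutrophil wells, and they overlap for Cxcl2 in macrophage wells.

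Most Cxcr2 transcripts did not lie in neutrophil wells. Of 2677, 35.97% lay in wells of unnamed clusters, 23.6% in epithelial wells, 15.9% in neutrophil wells and 12.6% in wells that did not pass the filters. The unnamed clusters 6, 8 and 17 (99, 88 and 36 wells) had 661, 1724 and 3250.25 CPM of Cxcr2, and 57.6%, 94.3% and 100% of their wells held a transcript. Neutrophil markers summed to 253, 266 and 220 CPM in them, against a mean of 48100 CPM in neutrophil wells. These clusters were led by genes such as Mcmdc2, D830005E20Rik, Gm7609, Vmn1r58 and Pot1b. After this was seen, Cxcr2 was set against the summed transcripts of 24 of their lead genes. In the 22 clusters that were not neutrophil, Cxcr2 stood at 6.42 to 14.2 transcripts per 1000 lead gene transcripts (median 9.83), while the lead genes ranged from 2295 to 245703 CPM. The ratio was 48.4 in the Ccl3-led and 129 in the Retnlg-led neutrophil cluster. By plate it was 47.2 to 116 in neutrophil wells (7 plates), against 7.44 to 25.3 in fibroblast, 6.90 to 16.5 in epithelial, 5.23 to 12.4 in macrophage and 0 to 22.9 in T cell-like wells. Of the neutrophil clusters, the Retnlg-led one had 80.5 to 205 by plate, whereas the Ccl3-led one had 11.3 to 77.1, with its lowest plate inside the range of the other classes. What these clusters are, and why Cxcr2 went with their lead genes, was not tested.

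**Figure D5:**
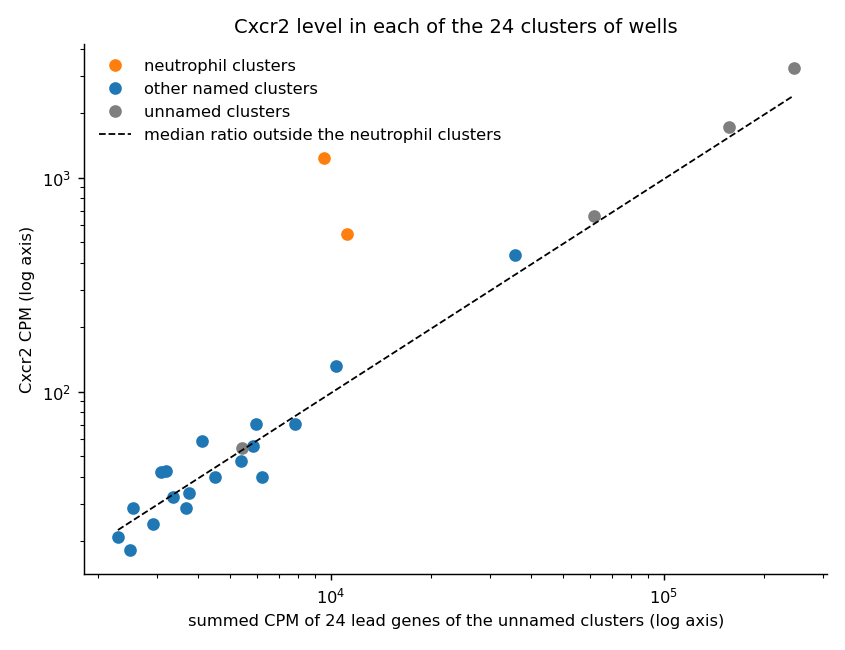
Cxcr2 against the summed level of 24 lead genes of the unnamed clusters, both in CPM on log axes, with 1 point for each of 24 clusters and a dashed line at the median ratio outside the neutrophil clusters. The 22 other clusters lie along the line over the whole range of lead gene levels, and the 2 neutrophil clusters lie above it.

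Whether plates with more ligand in tumor cells held more neutrophils was asked over the 8 plates. Neutrophil wells made up 3.28% to 72.2% of the named immune wells of a plate. The summed level of the 5 ligands in epithelial wells ranged from 261 to 535 CPM and did not follow this share (Pearson r = 0.07, permutation p = 0.871, Spearman rho = -0.02, permutation p = 0.977). Without the 2 plates farthest from the median level, FibCtrl plates 1 and 2, r was -0.08. Of the single ligands, Cxcl1 had r = -0.54 (permutation p = 0.152, 0.521 adjusted over 6 relations, rho = -0.36), and Cxcl2 went from 0.37 to -0.50 without 2 plates. Cxcl3, Cxcl5 and Ppbp had r of 0.46, 0.43 and 0.33, and none passed. The sort set the number of immune wells, so this share is that of sorted cells.

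Genes with a like pattern were ranked by Pearson correlation of log2(CPM + 10) over 40 sums of class and plate, among 9987 genes. The points share plates, depth and cell class, so the values are a description. Cxcl2 was closest to Wfdc17 (0.96), the inflammasome gene Nlrp3 (0.96) and Il1b (0.95), with Cxcl3 at rank 36 (0.90). Cxcl3 was closest to Csf3r, the receptor gene for granulocyte colony-stimulating factor (0.93), Clec4e (0.93) and Irg1 (0.93). Cxcr2 was closest to the neutrophil calcium-binding protein gene S100a9 (0.93), Gm10872 (0.89) and 1100001G20Rik (0.89). Cxcl1 was less closely followed, by Ier3 (0.77), App (0.75) and P4hb (0.75), and Cxcl5 by Slc4a4 (0.58), Wisp2 (0.57) and Bckdhb (0.55). For Ppbp the closest were Xcl1, Cd160 and Gzma (0.67 each), on 42 transcripts over all wells. Its highest sum was the natural killer or innate lymphoid-like one, where 1 transcript gave 33.5 CPM. Ranked by Spearman correlation, 6 of the 18 genes named for the 6 members remained among the 3 closest, and 0 of those for Ppbp or Cxcr2.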

How the data were processed

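Per the labels, single cells were sorted into plates and libraries were made by CEL-Seq2. The deposited values are estimated counts, that is, UMI counts per gene and well that the authors corrected for UMI collisions after alignment with BWA to the GRCm38 transcriptome. The submitters' processing notes also name Cell Ranger 2.1.1. Whether counting used strand is not given in the sources used here. As a check, the collision correction was inverted, which gave whole UMIs (4096 possible, tolerance 0.2). The tests used sums of the corrected values, rounded to whole numbers. Wells with at least 500 transcripts and a mitochondrial share within 3 MADs were kept (1831 of 3072), clustered with leidenalg 0.10.2 (2000 variable genes, 20 components, 15 neighbors, resolution 1) and named from marker lists. Fibroblast-like wells with at least 2 Ptprc or Epcam transcripts (36) were left out, and no doublet caller was run on sorted cells. Counts were summed per class and plate with at least 10 wells and tested with edgeR 4.0.16 (quasi-likelihood, TMM, Benjamini-Hochberg, threshold 0.05). DESeq2 1.42.0, other filters and scalings, other class rules and omission of each plate were the alternatives. Genotype fits had no covariate, and class contrasts had plate as a block. Single values were tested by exact permutation over plates. The edgeR genotype fit in epithelial wells and the neutrophil minus epithelial contrast were tested on simulated counts, and the other fits were not. Flow cells were read from the deposited names.

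Named were the 6 members, the 3 genes most like each member with at least 20 transcripts among genes with mean CPM of at least 10, and, of the companion lists, genes that passed the genotype test or else up to 4 per list by mean level in the class described. The members and lists were chosen with earlier results of these data known. Comparisons by flow cell, of clusters within a class (also without each plate), of overlap between plates, without the top well and of Cxcr2 with lead genes were chosen after seeing the data, as were other genes named by a count.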

Additional observations from a re-analysis of the deposited data

Results flagged for a closer look

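In epithelial wells, 1 plate stood far from the other plates of its genotype for 3 of the 6 genes (Dixon's criterion, 16 groups of 4 plates tested). The criterion flags about 1 in 20 groups by chance for normally distributed values, a rate that sparse counts need not follow. A group with 1 plate above 0 and the others at 0, as for Ppbp, is flagged at any level. Cxcl5 had 100.4 CPM on FibCtrl plate 4 against 0 to 11.9 on the other FibCtrl plates, and 62.5 CPM without its top well. Ppbp had 14.5 CPM on the same plate against 0 on the other FibCtrl plates, and 7.23 CPM without its top well. Cxcr2 had 131 CPM on FibΔZeb1 plate 2 against 27.2 to 37.6 CPM on the others. On that plate, epithelial cluster 20, led by Saa1, Guca2a and Aqp8, had 463 CPM of Cxcr2 and the Muc2-led cluster 81.8 CPM. Over all plates, cluster 20 also had 35880 CPM of the 24 lead genes of the unnamed clusters. It had 12.2 Cxcr2 transcripts per 1000 lead gene transcripts, against a median of 9.83 over the 22 clusters that were not neutrophil.

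Cxcr2 was also seen in wells outside the comparisons, at 661, 1724 and 3250.25 CPM in unnamed clusters 6, 8 and 17 and at 479.6 CPM in the 1241 wells that were not kept, against 52.4 CPM in epithelial wells.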

How the results depend on the processing

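Genotype. No alternative called a member except the fit without an expression filter, which called 1 member (Cxcl5) in fibroblast wells. Over all genes, fibroblast calls went from 1 to 328 without a filter, 39 with flow cell as a covariate, 37 with DESeq2, 0 with classes from marker sums, 0 with Ptprc or Epcam wells kept, and 0 to 4 with 1 plate left out. Epithelial calls were 1 with DESeq2 and 0 with any 1 plate left out. Macrophage calls were 39 without a filter, 1 with DESeq2 and 0 to 1 with 1 plate left out. Neutrophil calls were 20 without a filter and 1 to 6 with 1 plate left out, the 6 without FibCtrl plate 2. Of 15 member differences, 13 changed sign somewhere, in 27 of 232 values. With 1 plate left out, Cxcl1 ranged from -1.25 to 0.14 in fibroblast and -0.36 to 0.14 in epithelial wells, Cxcl2 from -0.63 to 0.67 in epithelial, -0.26 to 0.24 in macrophage and -0.67 to 1.07 in neutrophil wells, Cxcl3 from -1.85 to 2.73 in macrophage and -0.30 to 0.92 in neutrophil wells, Cxcl5 from -2.98 to 4.33 in fibroblast and -2.13 to 1.34 in epithelial wells, and Cxcr2 from -0.34 to 0.80 in fibroblast, -0.43 to 0.71 in epithelial and -0.38 to 0.076 in neutrophil wells. With at least 5 wells per plate, Cxcl1 in macrophage wells was 0.46 and Cxcr2 in fibroblast wells -0.31, which was -0.73 without the mitochondrial filter and -0.00556 with marker sums. Cxcl2 was -0.011 in macrophage wells with the flow cell covariate, and in neutrophil wells 0.013 without scaling and 0.023 with marker sums. Without the top well the CPM difference was 26.3 for Cxcl5 in fibroblast and 121 for Cxcl3 in macrophage wells.

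Replicate numbers were not taken as pairs, since same-numbered plates had correlations of their deviations of 0.54, 0.27, 0.16 and 0.08, and FibCtrl plate 4 went best with FibΔZeb1 plate 3 (0.38). With the replicate number as a block, 21 genes and 0 members were called in fibroblast wells, and Cxcl2 was 0.054 in epithelial and 0.14 in neutrophil wells.

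Classes. Between 15 and 17 of 24 member tests passed in fits with the same 24 tests (16 to 17 with 1 plate left out), 16 of 30 with FibCtrl alone (where Cxcl1 between epithelial and neutrophil and Cxcl3 between macrophage and neutrophil wells lost their calls), 16 of 36 with DESeq2 and 21 of 36 without a filter. The sign-flip permutation called 0 of 36. Its smallest possible p was 0.0156 to 0.125, so no adjusted p could have passed 0.05 and this count decides nothing. Of 24 differences, 4 changed sign, none of them past the threshold in the fit reported. Cxcl1 between fibroblast and macrophage wells was 0.000126 with DESeq2, 0.26 with FibCtrl alone, 0.51 with marker sums and -0.64 to 0.092 with 1 plate left out. Between fibroblast and neutrophil wells it was -0.00306 without scaling, -0.36 with FibΔZeb1 alone, -0.12 without the mitochondrial filter and -0.19 to 0.73 with 1 plate left out, and between macrophage and neutrophil wells -0.00687 to 0.91. Cxcl3 between fibroblast and epithelial wells was -0.38 without scaling, -0.093 without a filter, -0.62 without the plate block, -0.11 with DESeq2, -0.62 with FibΔZeb1 alone, -0.054 without the mitochondrial filter, -0.54 with marker sums and -0.76 to 0.34 with 1 plate left out. The share of neutrophil wells was 89.3% for Cxcl2 and 57.5% for Cxcr2 without thinning, and 29.8% for Cxcr2 at 500 transcripts. The correlation of summed ligands with neutrophil share was -0.082 without the 2 farthest plates and -0.44 to 0.43 with 1 left out, that of Cxcl2 -0.50 and -0.53 to 0.50, that of Cxcl3 -0.16 to 0.65, and that of Ppbp -0.23. By Spearman correlation 6 similar genes were shared. The causes were not tested. Neutrophil wells were shallow, with a median of 1891 transcripts.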

Other observations

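Wells of rarer classes entered no comparison. Cxcl1 had 734 CPM in mesothelial-like wells (FibCtrl plate 3) and 394 CPM in pericyte-like wells (FibΔZeb1 plate 1), each the only plate with 10 or more wells, and 32.9 CPM in dendritic cell-like and 33.5 CPM in natural killer or innate lymphoid-like wells. Cxcl2 had 18.01 CPM in mesothelial-like, 81.1 in pericyte-like, 414 in dendritic cell-like and 335 in natural killer or innate lymphoid-like wells. Among macrophage clusters, that led by Saa3, Serpinb2 and Alox15, seen with enough wells on FibCtrl plate 3 alone, had 2031 CPM of Cxcl1 and 7488 CPM of Cxcl2, against 187 and 959 CPM in the C1q-led cluster of the same plate.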
